A study of Mus musculus with 2 samples.

Results

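Spliceosomal small nuclear RNAs (snRNAs) and small Cajal body RNAs (scaRNAs) were examined in total RNA from mouse hippocampus. The members were chosen by their measured level: a gene with an annotated snRNA or scaRNA transcript entered if its mean over both libraries was 1 TPM (a transcripts-per-million value) or more. TPM is a read count divided by the effective length of the transcript and scaled to the same total in each library. In all, 71 of 1434 annotated genes entered, 52 of 1383 snRNA genes and 19 of 51 scaRNA genes, out of 55536 genes in the annotation. Another 16 genes of these types had a count but a lower level, and 1347 had no count in either library. Since the level chose the members, levels are given here as a description without a test.

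The spliceosome removes introns with small ribonucleoproteins, each built on an snRNA. U1 pairs with the 5′ splice site, U2 pairs with the branch site, and U4 holds U6 inactive until the tri-snRNP with U5 joins and U6 pairs with U2. A minor spliceosome that uses U11, U12, U4atac, U6atac and U5 removes a rare class of introns. Most of these RNAs carry a ring of Sm proteins on a short uridine-rich site. U6 and U6atac are made by RNA polymerase III and carry LSm proteins instead. scaRNAs guide 2′-O-methylation (C/D box) or pseudouridylation (H/ACA box) of the snRNAs in Cajal bodies, nuclear bodies that are prominent in neurons, and many are cut from introns of host genes.

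One group was sequenced, with 2 libraries and no treatment. Both came from adult male mice of strain B6CASTF1/J, an F1 hybrid of the strains C57BL/6J and CAST/EiJ, aged 8 to 10 months, with no transgene or agent named in the labels. Replicate 1 was animal 2 and replicate 2 was animal 4, and each library started from 300 ng of ribosome-reduced total RNA and kept the strand. The labels give the tissue as a layer of hippocampus, without saying which layer. The design holds no comparison of conditions, so the question that can be asked is how abundant each RNA was and how far libraries and quantification methods agreed. With 2 animals no permutation test can pass a threshold of 0.05, and in bulk tissue fewer cells and less RNA per cell cannot be told apart.

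Counts on annotated genes summed to 23408838 in replicate 1 and 29512441 in replicate 2. The markers of hippocampal excitatory neurons were present at similar summed levels, 938 and 961 TPM for 7 of 7 genes. The 7 choroid plexus markers, genes of the epithelium that secretes cerebrospinal fluid, summed to 8.38 TPM in replicate 1 and 85.3 TPM in replicate 2. In the test between libraries 7 of 7 passed. All but Kl had only 3 to 21 counts in replicate 1 and entered the test through replicate 2 alone, which favoured a call. The marker lists were chosen with earlier results of these data known, so these calls are a description. None of the 20 markers of neurons, astrocytes, oligodendrocytes and microglia passed, and 1 of them had an unadjusted p under 0.05 in edgeR. The part of this difference in the results below was not tested.

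The sequences below carry the results on U1, U2 and U4, which turn on how alike the gene copies are. They are the annotated GENCODE M21 transcripts (GRCm38, also called mm10), 5′ to 3′, with T for U. Copies are told apart here by this single reference, while the animals were F1 hybrids. Whether CAST/EiJ alleles differ from it at these bases, and so move reads between copies, was not tested. For Rnu1a1 (chr11:87422867-87423030, plus strand, in an intron of Tex14) capitals mark the bases that pair with the 5′ splice site and the Sm site. For Gm22513 (chr12:54696782-54696945, plus) and Gm23238 (chr19:18732741-18732904, plus) they mark the bases that differ from Rnu1a1. For Rnu2-10 (chr11:101658238-101658428, plus) they mark the branch-site pairing bases and the Sm site, and for Gm23472 (chr1:72236946-72237136, plus) and Gm25939 (chr1:72255008-72255198, plus) the bases that differ from Rnu2-10. For Gm24407 (chr5:115490254-115490394, plus) they mark the longest run complementary to Rnu6, 8 bases, and the Sm site, and for Gm24265 (chr5:115489459-115489599, plus) the bases that differ from Gm24407.
Rnu1a1: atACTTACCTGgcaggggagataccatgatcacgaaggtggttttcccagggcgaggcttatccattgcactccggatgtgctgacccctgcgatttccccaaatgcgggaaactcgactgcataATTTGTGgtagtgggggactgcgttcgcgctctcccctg
Gm22513: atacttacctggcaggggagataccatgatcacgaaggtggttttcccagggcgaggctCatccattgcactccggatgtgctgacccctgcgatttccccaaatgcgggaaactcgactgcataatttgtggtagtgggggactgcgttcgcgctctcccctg
Gm23238: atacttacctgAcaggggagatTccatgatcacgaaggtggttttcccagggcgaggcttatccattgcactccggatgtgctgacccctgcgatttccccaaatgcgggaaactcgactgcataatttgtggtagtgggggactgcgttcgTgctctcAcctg
Rnu2-10: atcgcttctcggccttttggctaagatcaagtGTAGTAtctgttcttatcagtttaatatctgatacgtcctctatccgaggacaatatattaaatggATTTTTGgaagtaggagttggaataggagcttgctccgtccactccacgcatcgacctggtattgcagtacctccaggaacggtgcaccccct
Gm23472: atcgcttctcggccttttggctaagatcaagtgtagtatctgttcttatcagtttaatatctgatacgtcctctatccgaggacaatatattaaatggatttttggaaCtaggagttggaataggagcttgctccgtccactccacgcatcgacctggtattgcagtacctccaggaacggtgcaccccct
Gm25939: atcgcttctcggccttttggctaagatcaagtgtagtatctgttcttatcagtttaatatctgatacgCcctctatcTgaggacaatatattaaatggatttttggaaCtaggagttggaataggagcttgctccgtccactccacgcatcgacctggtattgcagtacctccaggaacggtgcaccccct
Gm24407: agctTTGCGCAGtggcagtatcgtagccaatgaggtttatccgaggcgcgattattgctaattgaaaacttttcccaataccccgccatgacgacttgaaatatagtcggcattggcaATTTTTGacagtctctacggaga
Gm24265: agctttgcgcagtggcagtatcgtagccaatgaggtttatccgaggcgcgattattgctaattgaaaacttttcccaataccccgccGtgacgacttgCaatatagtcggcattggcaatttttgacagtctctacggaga

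Only 7 of the 71 members have a symbol that names their class. The others were assigned to the named snRNA with the nearest sequence, at 70% identity or more over the whole length. Gm24407 and Gm25541 served as references for U4 and U6atac, recognised from their sequence. By this assignment 24 members were U1-like, 12 U2-like, 2 U4, 2 U6-like, 2 U12-like and 2 U6atac-like, and 8 snRNAs were like none of these. No member was U5, U7 or U11. For U4atac no reference was used, so a gene of that class could not be assigned to it. Among the annotated genes, 134 were U1-like, 25 U2-like and 821 U6-like, so the class with most annotated copies, U6, gave only 2 members. At 98% identity or more to the named gene, 13 of 19 U1-like, 9 of 10 U2-like and 0 of 110 U6-like genes were members. Under 90% identity, 10 of 100 U1-like and 1 of 11 U2-like genes were members. Identical copies are given equal parts of the same reads and enter together, so these counts are a description.

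U2 had the highest summed level, followed by U1, the scaRNAs and U4. U2 summed to 5514 TPM in replicate 1 and 7387 TPM in replicate 2 (6451 ± 1324, SD, n = 2). U1 summed to 4210 and 3946 TPM (4078 ± 187, n = 2). The 19 scaRNAs summed to 1965 and 1937 TPM (1951 ± 19.7, n = 2), and the 2 U4 genes to 1425 and 2091 TPM (1758 ± 471, n = 2). U4 and the scaRNAs do not differ beyond their spread, since U4 lay below the scaRNAs in replicate 1 and above them in replicate 2. The remaining 14 snRNA members were far lower, with sums from 11.4 TPM for U12 to 19.0 TPM for the 8 snRNAs of no class. U2 alone held 45.1% of the members' TPM, U1 28.5%, the scaRNAs 13.6% and U4 12.3%.

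**Figure D1:**
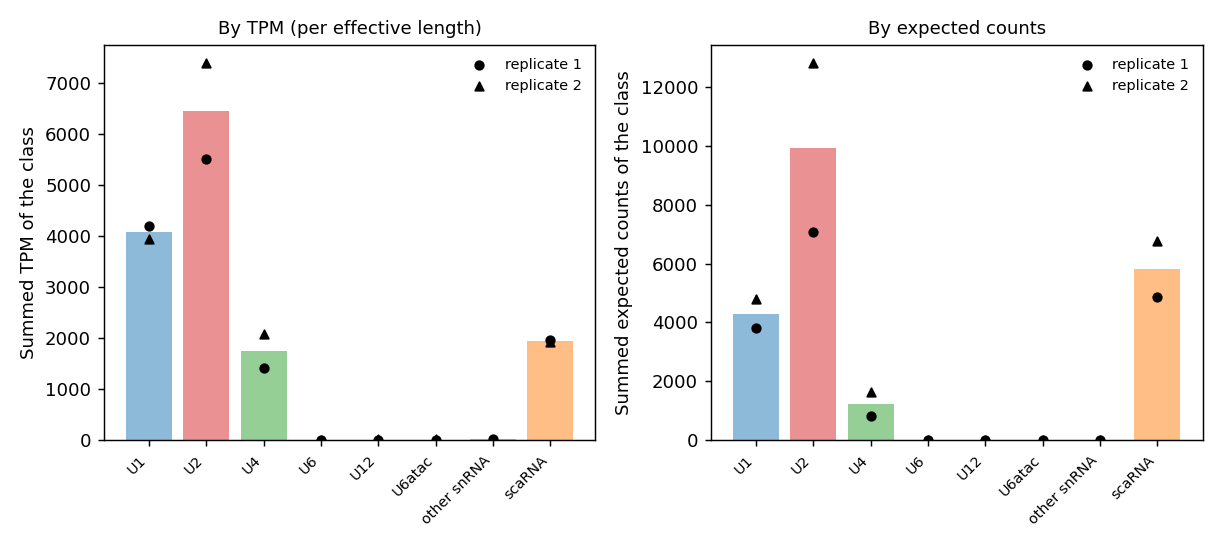
Summed level of each class, in TPM (left) and in expected counts (right). Bars are the mean of the 2 libraries, and points are each library. U2 is highest on both scales, while the scaRNAs stand below U1 in TPM (1951 against 4078) and above it in counts (5817 against 4300).

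The order of the classes depended on the length scale. All 71 members took 1.32% of TPM in replicate 1 and 1.54% in replicate 2. Of annotated counts they took only 0.0709% in replicate 1, with a 95% Wilson interval of 0.0698% to 0.0720%. In replicate 2 this share was 0.0882%, with an interval of 0.0871% to 0.0893%. These intervals cover counting error only. The effective length of these RNAs was their length minus 100 bases, which left 64 of 164 bases for Rnu1a1, 91 of 191 for Rnu2-10, 41 of 141 for Gm24407 and 314 of 414 for Scarna2. By TPM the ratio of U2 to U1 was 1.31 in replicate 1 and 1.87 in replicate 2, and by counts it was 1.86 and 2.66. The ratio of U4 to U1 was 0.339 and 0.530 by TPM, and 0.217 and 0.340 by counts. The scaRNAs were at 0.467 and 0.491 of U1 by TPM but at 1.28 and 1.41 by counts.

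U1 came from a set of nearly identical genes. The 7 genes of 1 sequence, Rnu1a1, Gm22634, Gm23804, Gm22068, Gm25679, Gm22317 and Gm26444, were each given 487 TPM in replicate 1 and 448 TPM in replicate 2, from 440 and 546 expected counts. Equal values here are an equal division of the same reads, not 7 separate measurements. Gm22513 differs from them by T60C (position 60 from the 5′ end, Rnu1a1 base first) and stood at 469 and 457 TPM (463 ± 8.12, n = 2), so its level was close in both libraries. Gm23238 differs by G12A, A23T, C153T and C160A and stood lower, at 295 and 255 TPM (275 ± 28.0, n = 2). G12A is the base directly after the 9 bases marked as pairing with the 5′ splice site. Of the U1-like members, 7 lie within chr12:54696782-54738622 and 2 lie in introns of Tex14 on chromosome 11.

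The U1-like genes with the Rnu1b sequence were low. Gm25890 and Gm22614, identical to each other and 1 base (T33C) from Rnu1b1, were each given 4.73 and 6.88 TPM, from 4.33 and 8.50 counts. Rnu1b1, Rnu1b2 and Rnu1b6 were listed at 0 in both libraries, with upper bounds of up to 6.57 TPM in the authors' deposited table. Mouse U1b is known as an embryonic form of U1. Gm22042, also near Rnu1b1, had 4.73 TPM in replicate 1 and 0 in replicate 2. The 10 U1-like members under 90% identity had at most 3.39 TPM in any library except Gm22611 at 4.25 and 0 TPM.

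U2 showed 2 sequence groups at comparable levels. Gm23472 and its identical copy Gm23444 were each given 1322 TPM in replicate 1 and 1792 TPM in replicate 2 (1557 ± 332, n = 2), the highest of all members. They differ from Rnu2-10 by G109C. Rnu2-10 and its copies Gm24950, Gm23971 and Gm23849 were each given 603 and 814 TPM (708 ± 149, n = 2). Gm25939, with T69C, C78T and G109C, stood at 385 and 465 TPM, and Gm25360, with C78T, A95G, G109C and C154T, at 49.1 and 71.7 TPM. In each of these 8 genes replicate 2 was above replicate 1. Position followed sequence: G109C was carried by 4 of 4 members within chr1:72226240-72255198 and by 0 of 5 members within chr11:101604850-101658428. Gm23444, elsewhere on chromosome 11, carries it too. The 5 members with G109C summed to 3975 and 7132 counts, and the 6 other members of 191 bases to 3096 and 5649 counts. The log2 ratio between libraries was 0.53 for the first group and 0.55 for the second, so the groups had nearly the same ratio. Of the 4 other U2-like members, Gm24497 was at 18.2 and 0 TPM and is described with the estimates of shared reads. The other 3 were low: Gm26316 (C170T) was at 0 and 6.52 TPM, Gm23887 at 3.94 and 2.92 TPM and Gm22973 at 0.780 and 1.73 TPM.

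U4 rested on 2 genes that could be counted apart. Gm24407 was at 716 TPM in replicate 1 and 1127 TPM in replicate 2 (922 ± 291, n = 2), from 414 and 879 counts. Gm24265, which starts 795 bases before it on the same strand and differs by A88G and A99C, was at 709 and 964 TPM (837 ± 180, n = 2), from 410 and 752 counts. All of these counts were whole numbers (within 0.01). The posterior mean counts, described below, were the same, so no division of reads with another gene was seen. The genes were close to each other within each library, and replicate 2 was higher for both.

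The copies differ in how well their own level is fixed. The authors' deposited table gives a lower and an upper bound with each TPM, and their confidence level is not stated. For Gm24407 in replicate 1 these bounds were 619 and 751 TPM. For Gm22634, 1 of the 7 identical U1 genes, they were 0.0016 and 1542 TPM. Among the 30 members with a mean of 10 or more counts, the width of the bounds divided by TPM in replicate 1 had a median of 0.179 in the 10 genes with whole counts and 2.25 in the 13 genes that share their sequence with another gene. The sum over copies was close between 2 estimates for some groups and not for others. The 4 Rnu2-10 copies had posterior mean counts, a second estimate in the same table, from 625 to 1018 in replicate 1, and these summed to 3092 against 3095 expected counts. The 7 identical U1 genes summed to 2919 against 3078, and the pair Gm23472 and Gm23444 to 2440 against 3394, so the pair's own level was less well fixed.

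**Figure D2:**
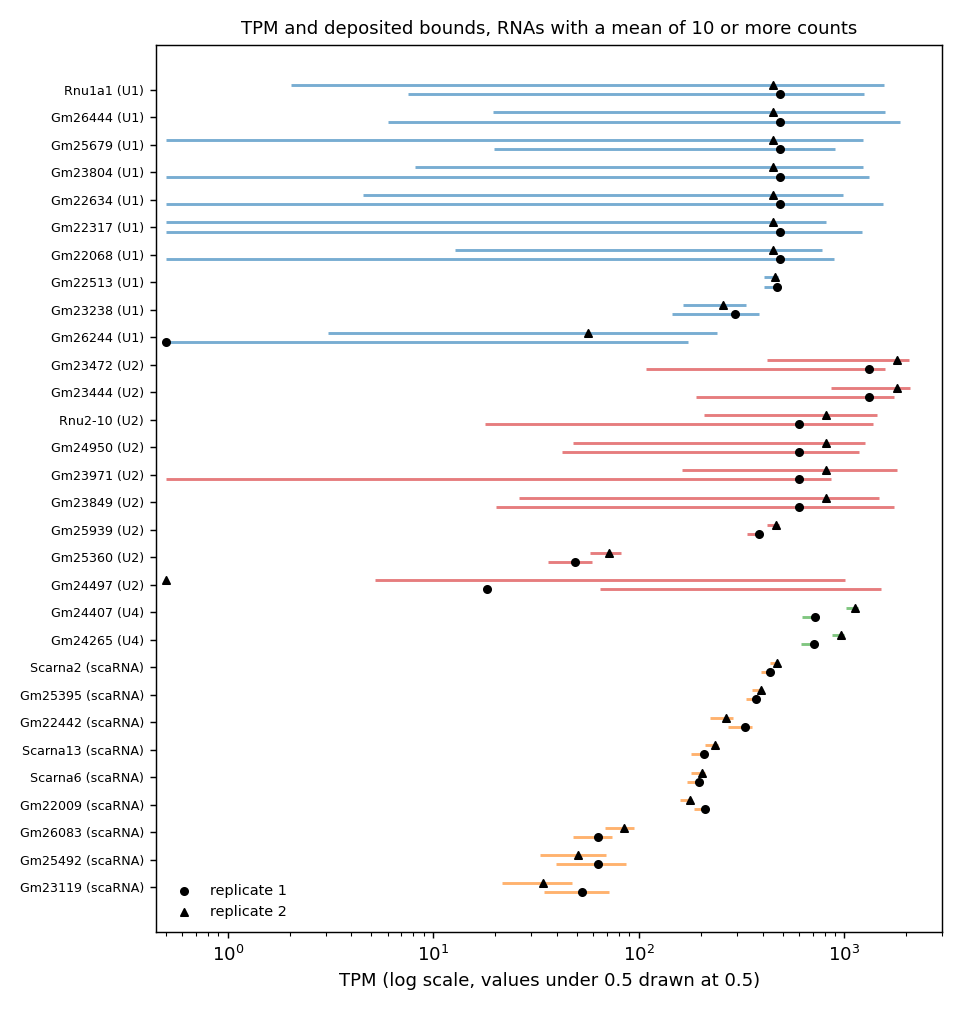
TPM (black points) and the authors' lower and upper bounds (coloured lines) for the 30 members with a mean of 10 or more counts, on a log axis, with values under 0.5 drawn at 0.5. The 7 identical U1 genes have bounds across most of the axis around the same 487 and 448 TPM, while Gm22513, Gm25939, the U4 genes and the scaRNAs have narrow ones.

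Some members listed at 0 in a library had posterior mean counts well above 0. Gm24497, a U2-like gene with G109C and C186A that was singled out after its values were seen, had 23.3 expected counts in replicate 1 and 0 in replicate 2. Its posterior mean counts were 977 and 956, and the 18.2 TPM it was given in replicate 1 was under the lower bound of 64.6 TPM. Together with Gm23472 and Gm23444, Gm24497 had 3418 expected and 3417 posterior mean counts in replicate 1. Gm24305, a U1-like gene with A26G, had 0 and 17.9 expected counts but posterior mean counts of 15.8 and 30.04. TPM lay outside its own bounds in at least 1 library for 24 of the 71 members. A TPM of 0 lies below any bound above 0, and only 48 members had a count in both libraries. The 24 thus mostly repeat the zeros and do not measure shared reads. Scarna2, with whole counts, was among them, at 433 TPM against an upper bound of 430 TPM in replicate 1. Of the 71 members, 41 had whole expected counts in both libraries, and 30 did not. A whole count does not show that no read was shared. Gm25820 had 1 and 6 expected counts but posterior mean counts of 0.52 and 3.06.

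The remaining snRNA classes were near the limit of detection. Rnu12, the U12 RNA that pairs with the branch site of minor introns, was seen with 3 counts and 4.17 TPM in replicate 1, and with 16 counts and 16.5 TPM in replicate 2. Gm25541, the U6atac-like reference, had 2 and 9 counts, or 5.45 and 18.2 TPM. Both were higher in replicate 2, on very few counts. Gm24144 and Gm23412, the 2 U6-like members, had at most 2 counts in a library. Gm26473, the other U6atac-like member, had 0 and 2.94 counts. Of the 8 snRNA members of no class, the highest was Gm23497 at 10.7 and 0 TPM. Rnu11, of 134 bases, was listed at 0 in both libraries, where up to 3 counts cannot be told from 0. The minor snRNAs are shown because their annotated sequences are unique. Capitals in Rnu12 (chr15:83149644-83149794, plus) mark its Sm site, and Gm25541 (chr2:27539805-27539930, minus) has no marked base.
Rnu12: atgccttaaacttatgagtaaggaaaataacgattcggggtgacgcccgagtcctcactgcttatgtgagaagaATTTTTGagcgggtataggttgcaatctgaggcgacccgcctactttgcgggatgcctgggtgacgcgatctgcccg
Gm25541: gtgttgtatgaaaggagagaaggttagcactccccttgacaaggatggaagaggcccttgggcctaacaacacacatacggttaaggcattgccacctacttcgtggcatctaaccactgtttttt

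Counts were rarer among shorter genes. The effective length was 0 for the 220 annotated genes of 100 bases or fewer, among them Rnu7 (62 bases) and Scarna17 (79 bases), and none of these had a count. Of 812 genes of 101 to 110 bases, which hold most U6-like genes, 1 had a count. Of 217 genes of 151 to 200 bases 52 had one, and of 8 longer genes 5. Rnu6, of 107 bases with an effective length of 7 bases and 43 genes of identical sequence, and Rnu5g, of 116 bases, were listed at 0. One count was worth 10.1 TPM for the 107-base Gm23412 but 0.780 TPM for the 191-base Gm22973 in replicate 1. A value of 0 at such effective lengths does not show that U5, U6 or U7 was absent from the tissue. At the threshold, Gm24525 (1.03 TPM), Gm26121 (1.15 TPM) and Gm22958 (1.16 TPM) were the lowest members, and Gm25260, Gm24959 and Gm25259 (0.765 to 0.775 TPM) the highest genes outside, all on 1 to 3 counts summed over both libraries.

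Among the scaRNAs Scarna2 was highest. This RNA, a 414-base RNA with C and D boxes at chr3:108554338-108554751 (minus) and no host gene on its strand, was at 433 TPM in replicate 1 and 470 TPM in replicate 2 (451 ± 26.2, n = 2), from 1916 and 2806 counts. Gm25395 and Scarna6 lie in introns of Atg16l1, an autophagy gene, and stood at 371 and 392 TPM and at 197 and 202 TPM. Scarna13, in an intron of the noncoding host Snhg10, was at 207 and 235 TPM. Gm22442, in an intron of the chromatin remodeller Chd3, was at 327 and 264 TPM, and Gm22009, in an intron of the importin gene Kpna4, at 210 and 177 TPM. Gm26083 overlaps an exon of Snhg20 and stood at 63.3 and 84.7 TPM, and Gm25492, in an intron of the methyltransferase gene Bud23, at 63.6 and 50.8 TPM. Gm23119 was at 53.2 and 34.2 TPM. Replicate 2 was higher for 5 of these 9 and lower for 4, so the scaRNAs did not share a direction.

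The box motifs of these guides are shown for 4 of them. Capitals mark the first C box TGATGA and the last D box CTGA in Scarna6 (chr1:87784556-87784820, plus) and Gm25395 (chr1:87776938-87777209, plus), and the ACA that ends 3 bases before the 3′ end in Scarna13 (chr12:105031075-105031349, minus) and Gm22442 (chr11:69350518-69350661, minus).
Scarna6: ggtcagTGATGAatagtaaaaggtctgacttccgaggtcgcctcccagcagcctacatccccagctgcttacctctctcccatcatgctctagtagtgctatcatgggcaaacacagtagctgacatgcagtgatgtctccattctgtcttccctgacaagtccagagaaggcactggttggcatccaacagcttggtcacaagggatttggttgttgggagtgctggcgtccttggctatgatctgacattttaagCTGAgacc
Gm25395: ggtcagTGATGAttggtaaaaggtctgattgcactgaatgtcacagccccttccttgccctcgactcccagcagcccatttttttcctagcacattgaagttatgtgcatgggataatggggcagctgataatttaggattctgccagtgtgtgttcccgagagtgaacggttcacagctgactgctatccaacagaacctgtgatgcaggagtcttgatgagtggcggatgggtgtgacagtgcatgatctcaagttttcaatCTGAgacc
Scarna13: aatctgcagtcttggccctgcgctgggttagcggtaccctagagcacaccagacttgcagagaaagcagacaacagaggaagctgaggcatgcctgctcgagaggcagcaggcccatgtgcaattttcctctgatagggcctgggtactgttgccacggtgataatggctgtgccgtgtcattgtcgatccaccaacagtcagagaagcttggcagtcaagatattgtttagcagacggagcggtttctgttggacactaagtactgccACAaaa
Gm22442: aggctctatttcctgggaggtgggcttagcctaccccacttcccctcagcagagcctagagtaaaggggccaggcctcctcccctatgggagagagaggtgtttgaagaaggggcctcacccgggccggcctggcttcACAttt

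Motifs were searched on the transcript strand only, since these are RNAs. Of the 9 scaRNA members with a mean of 10 or more counts, 4 held TGATGA with CTGA in the last 15 bases, and another 4 held ACA 3 bases before the end. In the first 164 bases of 58200 protein-coding transcripts these patterns occurred in 0.392% and 1.62%. Gm23119 held neither. Of the 10 scaRNA members with fewer counts, 0 held the first pattern and 5 the second. Of 32 scaRNA genes outside the selection, 3 held the first and 16 the second, so ACA was no more frequent among the members. An Sm site, written as A, 4 to 6 T and G, or as ATTTGTG, was in 21 of 21 snRNA members with a mean of 10 or more counts, in 16 of 31 with fewer and in 259 of 1331 other snRNA genes, against 5.03% of the same windows in protein-coding transcripts. It was in 0 of 19 scaRNA members. The 21 snRNA members were 10 U1-like, 9 U2-like and 2 U4 genes, many of them copies, and ATTTGTG is the site marked in Rnu1a1. Of the 1383 annotated snRNA genes 821 were U6-like, and U6 carries LSm proteins instead. Level, class and copies cannot be told apart in these Sm site counts, which are a description. In the 4 members with both boxes the C box and the D box do not overlap. A match describes letters in the annotated sequence only.

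The 41 members with a mean under 10 counts mostly lay inside other genes. Together they held 209 counts over both libraries, against 42407 for the other 30. Of these 41, 33 lay inside another gene on the same strand, against 14 of the 30. The host gene had the higher mean TPM for 30 of those 33 and for 0 of the 14. For example, Scarna3a, in an intron of Cop1, had 3 counts in replicate 1 and 0 in replicate 2, a mean of 2.66 TPM against 56.9 for Cop1. Gm22767 in Ppp1r8 had 7 and 9 counts, or 7.64 and 7.28 TPM, against 19.6 for its host. By type, these were 23 of 31 snRNAs and 10 of 10 scaRNAs. Outside the selection, 20.8% of snRNA genes and 43.8% of scaRNA genes lay in a host. Because level chose both groups, these counts are a description. The part of reads from host RNA in these levels was not tested.

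Among the 7 scaRNAs with hosts and a mean of 10 or more counts, the contrast ran over a wide range. Scarna13 stood at 36.9 times the TPM of Snhg10, Gm25395 at 10.5 times and Scarna6 at 5.50 times that of Atg16l1. Gm22009 stood at 4.76 times Kpna4, and Gm22442 at 1.32 times Chd3, which was itself at 224 ± 19.7 TPM (n = 2). Gm26083 stood at 3.87 times Snhg20 and Gm25492 at 2.30 times Bud23. The order of these 7 RNAs was not the order of their hosts. The 10 scaRNA members with fewer counts all stood below their hosts, from 0.008 times for Gm27653 to 0.567 times for Gm24289.

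Levels of the well-counted members were close between the libraries, but no closer than those of genes at large. Over all 71 members, log2(TPM + 1) had a Pearson's r of 0.89 and a Spearman's rho of 0.73 between libraries. Over the 30 members with a mean of 10 or more counts, r was 0.79 and rho 0.94, and 28 of them lay within 2-fold. Over the other 41, r was -0.24, and 14 lay within 2-fold. Only 20 of those 41 had a count in both libraries. Over all 16036 annotated genes with a mean TPM of 1 or more, r was 0.97 and rho 0.97, and 95.7% lay within 2-fold. Points of identical copies share their reads, so these correlations are given without a p.

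**Figure D3:**
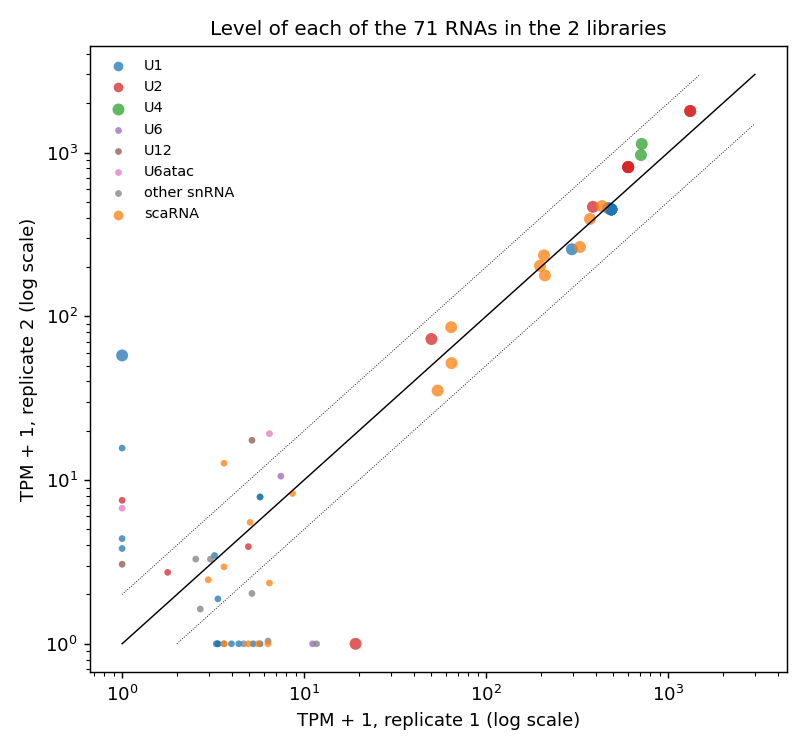
TPM + 1 of each of the 71 members in replicate 1 (x) and replicate 2 (y), on log axes. Large points have a mean of 10 or more counts, the solid line marks equality and the dotted lines a 2-fold difference. Large points other than Gm26244 and Gm24497, each at 0 in 1 library, lie between the dotted lines.

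The libraries were compared gene by gene with edgeR (TMM scaling, Benjamini-Hochberg adjustment over 16123 genes with 1 CPM or more (a counts-per-million value) in at least 1 library). This test compares these libraries, and not conditions. Of all genes tested 0.806% were called different, and of the 29 members tested 1 was, so their share rests on a single gene. A member that passed this filter through 1 library only had to differ. The called gene, Gm26244, is a U1-like gene on chromosome 18, in an intron of Rock1, with 0 expected counts in replicate 1 and 69.0 in replicate 2 and an adjusted p of 0.00036 in edgeR. It passed the filter through replicate 2 alone, at 0 and 2.35 CPM. Its reads are shared with the other U1 genes, so the 0 gives no bound on a fold: the upper bound of its TPM in replicate 1 was 172, above the 56.7 TPM it was given in replicate 2. With posterior mean counts, 63.3 in replicate 1 and 122 in replicate 2, the log2 ratio was 0.63 and the adjusted p 1.00 in edgeR. The call was made with expected counts and not with posterior mean counts.

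The other members tested differed by less than 2-fold. The median absolute log2 ratio was 0.24 over the 29 members and 0.19 over all genes tested. The U4 genes and the U2 copies had the largest ratios after Gm26244. Gm24407 had a log2 ratio of 0.77 (adjusted p = 0.265 in edgeR), Gm25360 one of 0.65, Gm24265 one of 0.56, Gm23472 one of 0.56 (adjusted p = 0.365) and Rnu2-10 one of 0.55 (adjusted p = 0.659). Such p-values do not show that these genes were equal in both libraries. The U1 copies were at -0.00 and Gm22513 at 0.08. The lowest were Gm23119 at -0.49, Gm25492 and Gm22442 at -0.19, Gm22009 at -0.13 and Gm23238 at -0.09. Of these, Gm23119 (1.27 and 0.887 CPM) and Gm25492 (1.10 and 0.955 CPM) passed the filter through replicate 1 alone, which favoured a ratio under 0. An unadjusted p under 0.05 was reached by 9 of the 29 members, against 778 of 16123 genes. With spike-in scaling this held for 1 of the 29 against 817 of all genes, and with a common dispersion for 1 against 1251, and that 1 was Gm26244. These 9 were the U2 copies, both U4 genes and Gm26244, and identical copies count the same reads again.

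**Figure D4:**
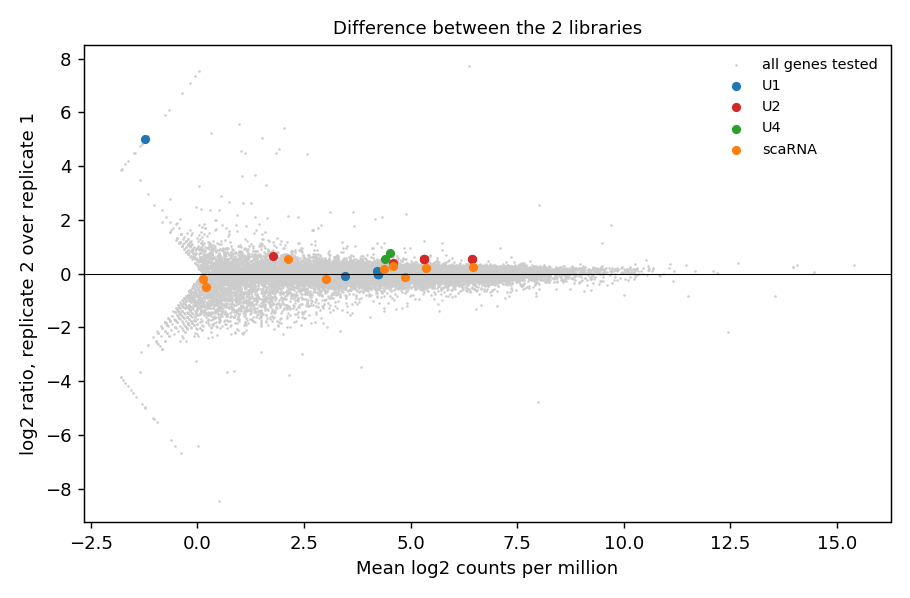
The log2 ratio of replicate 2 over replicate 1 against mean log2 CPM for all genes tested (grey) and for the 29 members tested (coloured by class). U2 and U4 lie above 0, at 0.39 to 0.77. U1 lies near 0 other than Gm26244, which had 0 counts in replicate 1. The scaRNAs lie from -0.49 to 0.53, and the lowest, Gm23119, passed the filter through replicate 1 alone.

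Class sums followed the single genes. As values without a test, summed CPM was 300.1 and 436 for U2 and 35.0 and 55.7 for U4, while U1 stood at 161 and 164 and the scaRNAs at 206 and 231. The log2 ratios were 0.54 for U2, 0.67 for U4, 0.02 for U1 and 0.16 for the scaRNAs. Scaling by the added spike-in RNAs moved the median of all genes by -0.23. On that scale U2 and U4 stayed above 0, at 0.31 and 0.44, while U1 and the scaRNAs went to -0.21 and -0.07. Small nucleolar RNA genes, summed in the same way, had a ratio of 0.18, the miscellaneous RNA class one of 0.22, protein-coding genes one of 0.03 and lincRNA genes one of -0.50. The U2 ratio was thus near the lincRNA ratio in size and opposite in sign.

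The 2 quantifiers disagreed on most members. The second one, deposited as transcript tables, gave at least 1 count in both libraries to only 5 of the 71 members and 0 to 59. The 7 remaining genes were U2-like and had 0.333 counts in each library. The 5 were the longest members, all scaRNAs of 265 bases or more, and the longest member without a count of 1 had 193 bases. For Scarna2 the second quantifier gave 1266 and 1832 counts against 1916 and 2806, and 403 and 433 TPM against 433 and 470. For Gm22009 it gave 285 and 237 TPM against 210 and 177, but from fewer counts, at 578 and 646 against 718 and 817. The effective length of Gm22009 was 108 bases by the second quantifier and 243 by the first in replicate 1. Scarna6 was at 101 and 129 TPM, Gm25395 at 60.2 and 62.4, and Scarna13 at 49.7 and 56.6, all below the first quantifier. In Gm25395 its counts were 0.0844 and 0.0827 times those of the first.

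**Figure D5:**
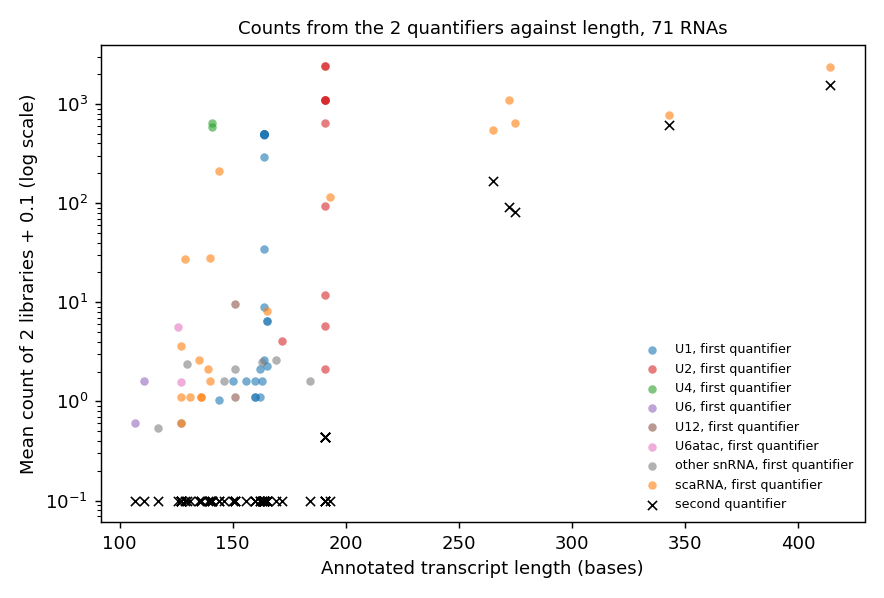
Mean count over the 2 libraries (plus 0.1, log axis) against annotated length for the 71 members, by the first quantifier (coloured points) and the second (crosses). Crosses stand at 0 or 0.333 counts up to 193 bases, and the 5 members of 265 to 414 bases have crosses well above these.

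The same was seen in other short genes. Of annotated genes with a mean of 100 or more counts by the first quantifier, 28 had 101 to 200 bases, of which 20 were members. All of these 20 and all of the 8 others had under 1 count by the second quantifier. Among genes that were not members, this held for 5 of 6 at 201 to 250 bases, 6 of 11 at 251 to 300 bases, 16 of 132 at 301 to 500 bases and 12 of 786 at 501 to 1000 bases. Over genes with a mean TPM of 1 or more, 95.4% lay within 2-fold between the quantifiers, against 3 of the 71 members. Over the members the median log2 ratio of second to first was -2.60 on the log2(TPM + 1) scale, with r of 0.32 and rho of 0.50. U1, U4, U6, U12 and U6atac were at 0 by the second quantifier. U2 summed to a mean of 2.33 counts by the second and 9930 by the first. The levels of all these classes thus rest on the first alone.

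The proteins that build these particles were also measured, from a list of 86 genes. All 86 were tested, 0 rose and 1 fell between the libraries, and 3 had an unadjusted p under 0.05 in edgeR. Over all genes tested 0.806% were called and 778 of 16123 had an unadjusted p under 0.05, so the list's counts are near the background. The called gene, Snrnp48, a protein of the U11/U12 particle, was lower in replicate 2. By counts, 653 and 380, its log2 ratio was -1.09 (adjusted p = 0.0159 in edgeR). By TPM the fall was smaller, at 12.8 and 8.88, and at 13.5 and 9.57 by the second quantifier. With spike-in scaling and with a common dispersion this call was lost, at adjusted p of 0.0636 and 0.173. Among the Sm proteins, which sit on the snRNAs, Snrpn was highest at 409 and 421 TPM, and Snrpf lowest of the 8 at 4.47 and 3.92 TPM. Snrnp70, the U1 protein that binds the first stem of U1, was at 248 and 161 TPM (log2 ratio -0.47, adjusted p = 0.836 in edgeR). Coil, the scaffold of Cajal bodies, was at 8.64 and 9.92 TPM, and Wrap53, which brings scaRNAs there, at 8.75 and 6.92. Of the enzymes that scaRNAs guide, the methyltransferase Fbl was at 26.6 and 21.4 TPM and the pseudouridine synthase Dkc1 at 16.9 and 16.6. The median level of the 86 genes was 17.6 TPM.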

How the data were processed

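Total RNA was sequenced in 2 libraries of 1 group. Per the deposited provenance records, the first quantifier used an alignment to the transcriptome and the second the read files and an index, with assembly mm10 and annotation GENCODE M21. Neither program's name was given in the sources used here. Per gene, the authors deposited expected counts (estimated counts, shared reads divided among genes), posterior mean counts and TPM, with bounds for TPM, used here as a score of unknown level, and estimated counts and TPM per transcript by the second quantifier. Per the file headers, lengths in bases were also given. Short RNAs have small effective lengths, so 1 count moves TPM far.

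Expected counts were rounded and fitted with edgeR 4.0.16 (R 4.3.3): TMM, trended dispersion, an intercept-only model, residual deviance against a chi-square with 1 degree of freedom, prior count 2, adjusted p under 0.05. The common coefficient of variation was 0.191. Labels give both animals 1 donor entry; p-values measure only the spread between these libraries. The fit was tested on simulated data, where it missed most small fold changes, so an uncalled gene is not shown to be equal. A pseudocount of 1 TPM was used for correlations. Classes came from sequence identity (Python 3.11.15, edlib). Members and lists were chosen with earlier results of these data known. Named genes were members whose symbol gives a class, the 10 highest others by TPM and by counts, the called member, the 5 largest and smallest ratios and 3 genes on each side of the threshold; other named members were singled out after their values were seen. The marker lists of microglia (summed TPM 63.9 and 77.5), astrocytes (1076 and 1043), oligodendrocytes (1347 and 1311) and interneurons (436 and 446) had 0 calls. Alternatives tried were other scalings, filters, dispersions, pseudocounts, thresholds, estimates and the second quantifier.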

Additional observations from a re-analysis of the deposited data

How the results depend on the processing

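The number of members was 83 at a mean of 0.5 TPM and 54 at 2 TPM. It was 44 with 1 TPM or more in each library, 30 with a mean of 10 or more counts and 5 with the second quantifier, and 56 to 71 with a single library. With the second quantifier, summed TPM was 911 in place of 14296 and the members' share of counts 0.0088% in place of 0.0795%. By class it gave 2.63 TPM for U2, 908 for the scaRNAs and 0.0000 for U1, U4, U6, U12, U6atac and the other snRNAs. By counts in place of TPM, the ratios to U1 were 2.26 for U2, 0.278 for U4 and 1.35 for the scaRNAs.

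Calls among members numbered 2 without a filter (Gm24497 joined, at 23.3 and 0 counts), 2 with posterior mean counts (Gm23971 and Gm23472 were called and Gm26244 was not) and 0 with the second quantifier, which left 5 members to test. DESeq2's size factors, spike-ins, a mean filter and a common dispersion each gave 1 call. Over all genes a common dispersion gave 341 calls in place of 130. The pathway list had 0 calls with spike-in scaling and 0 with a common dispersion. The cause was not tested.

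Agreement of libraries over members moved with the set, the pseudocount and the quantifier: the median absolute log2 ratio was 0.50 over all, 0.29 over well-counted members and 0.00 with the second quantifier, where most values are 0. There r was 0.9994 and rho 1.00. With a pseudocount of 0.1, r was 0.73, and over well-counted members r was 0.79 and rho 0.94. Between quantifiers the median log2 ratio was -2.17 by counts, -5.45 with a pseudocount of 0.1, and -2.46 to -2.52 with a single library. There r was 0.42 by counts and 0.41 with the smaller pseudocount, and rho was 0.64 by counts. Members within 2-fold numbered 15 by counts and 11 to 22 with a single library, where genes at 0 in both tables count as equal. No paired analysis was possible because there is 1 group. Few counts limit every value for the 41 members under 10 counts.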
